A study of Mus musculus with 3 samples.

Results

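The genes described here are 49 mouse genes that start and carry out DNA replication or drive the step from G1 into S phase of the cell cycle. They were taken by symbol, and all 49 of the 49 names had a value among the 11886 genes of the authors' deposited table, on 77 transcripts. Sorted tumour cells from SCID mice, sorted tumour cells from wild-type (WT) mice and the cultured cell line were compared by RNA sequencing. The line, mT3-2D-GFP, was made from C57BL/6 KPC cells, of a genetically engineered model of pancreatic cancer driven by Cre recombinase in the pancreas, and it carries green fluorescent protein (GFP). The SCID hosts were of the strain B6.CB17-Prkdcscid/SzJ, which lacks T and B cells and keeps innate immune cells, the WT hosts were immunocompetent C57BL/6 mice, and the cultured cells grew in DMEM with serum. GFP-positive cells came from 5 SCID tumours and from 6 WT tumours, RNA was combined in equal amounts within a group, and each group gave 1 library.

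The table gives differences between libraries and no levels, so no value per library can be printed. Each value below is a log2 difference from the authors' deposited table. A gene's value averages its transcripts unless a transcript is named, and a fold is 2 raised to that value. There are no replicates, no difference was tested and no p-value exists, so "lower" gives the sign of a value. A gene is counted as lower or higher by 2-fold at a log2 difference of 1. A mean of 40000000 reads per sample is given in the labels, and the depth of any single library is not known. Transcripts of 1 gene had a pooled SD of 0.33 for SCID tumours minus the line, 0.31 for WT tumours minus the line and 0.22 for SCID minus WT tumours, a spread of transcripts and not of animals. All 3 groups are of 1 line, the comparisons with the line share its library, and the tumour cells were sorted from tissue while the labels describe no sort for the cultured cells.

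Before S phase, the origin recognition complex, CDC6 and CDT1 load rings of MCM2 to MCM7 onto DNA, which is called licensing, and geminin blocks loading again until the next cycle. Cyclin E with CDK2 releases E2F transcription factors from the retinoblastoma protein, and E2F drives many of the genes described here. At S phase CDC45 and the GINS complex switch the MCM ring on as a helicase, and polymerases with their clamp copy the strands from nucleotides made by ribonucleotide reductase, thymidylate synthase and thymidine kinase. RNA of many of these genes is low in resting cells and high in cycling ones.

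Promoter sequence is shown first because E2F drives many of these genes, though not every promoter held one of the E2F-like words searched here. RefSeq promoter windows on GRCm38.p6, from 250 bases before to 50 after an annotated start, were given for 40 of the 49 genes. The 9 without a window were Gmnn, Mcm4, Gins1, Gins2, Gins4, Rfc2, Prim2, Pole and Ccne2. The E2F-like words TTTCCCGC, TTTCGCGC, TTTGCCGC and TTTGGCGC were searched on both strands, where matches on opposite strands may overlap and count separately. Of the 40 genes 16 (40.0%) held a match, against 449 of 9279 genes of the table with a window (4.84%) and 744 of all 32851 windows (2.26%). The CCAAT box, searched as CCAAT, was in 25 of the 40 genes (62.5%) and in 43.3% of the table's genes. The cell cycle homology region, searched as TTTGAA, was in 6 of the 40 (15%) and in 14% of the table's genes. Licensing genes held E2F-like words most often, 7 of 10, and the nucleotide supply genes held none in 5.

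The 6 stretches below run 5′ to 3′ on the gene's strand from 170 bases before the start, 200 bases each, with E2F-like matches in capitals. Mcm5 and Orc1 stand for licensing genes with matches and Mcm6 for the gene with the most matches. Mcm7 is shown at both its starts because its transcripts differ in direction, and Rrm2 has the lowest values and no match.
Mcm5, chr8:75109339-75109538, forward strand: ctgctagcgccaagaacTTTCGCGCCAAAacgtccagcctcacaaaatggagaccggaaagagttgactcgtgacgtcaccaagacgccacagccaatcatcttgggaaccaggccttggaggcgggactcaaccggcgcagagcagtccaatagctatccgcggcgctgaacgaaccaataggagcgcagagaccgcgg
Orc1, chr4:108579284-108579483, forward strand: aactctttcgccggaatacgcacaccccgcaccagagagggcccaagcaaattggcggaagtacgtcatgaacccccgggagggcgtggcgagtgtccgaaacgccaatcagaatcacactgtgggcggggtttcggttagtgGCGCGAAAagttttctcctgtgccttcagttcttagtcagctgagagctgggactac
Mcm6, chr1:128359676-128359875, reverse strand: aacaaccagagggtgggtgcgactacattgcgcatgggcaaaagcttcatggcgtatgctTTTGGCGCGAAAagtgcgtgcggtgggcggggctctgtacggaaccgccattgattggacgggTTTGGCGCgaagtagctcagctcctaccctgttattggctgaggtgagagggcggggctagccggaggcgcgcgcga
Mcm7, upstream start, chr5:138171854-138172053, reverse strand: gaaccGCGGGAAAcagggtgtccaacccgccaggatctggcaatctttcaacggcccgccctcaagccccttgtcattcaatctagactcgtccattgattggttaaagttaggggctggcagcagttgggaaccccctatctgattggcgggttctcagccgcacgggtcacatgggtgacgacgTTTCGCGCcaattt
Mcm7, downstream start, chr5:138171237-138171436, reverse strand: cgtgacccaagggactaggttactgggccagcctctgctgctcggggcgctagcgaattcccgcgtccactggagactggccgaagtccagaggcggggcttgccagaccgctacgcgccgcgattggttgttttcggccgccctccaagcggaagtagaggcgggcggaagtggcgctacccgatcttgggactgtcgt
Rrm2, chr12:24708084-24708283, forward strand: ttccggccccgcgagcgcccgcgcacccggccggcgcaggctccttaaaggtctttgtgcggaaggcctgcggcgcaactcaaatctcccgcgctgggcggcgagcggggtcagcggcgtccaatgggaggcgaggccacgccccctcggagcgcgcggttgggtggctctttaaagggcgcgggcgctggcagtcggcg

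In Mcm5 and in Mcm6 a pair of matches overlaps, so that one word reads on each strand of the same 12 bases. The median difference of the 16 genes with a match was -0.77 in SCID tumours minus the line, and that of the 24 without one was -0.87. In WT tumours minus the line the medians were -0.80 with a match and -0.78 without. Among all genes of the table with a window the median was -0.12 with a match and -0.01 without in SCID tumours minus the line. In WT tumours minus the line these were -0.13 with a match and -0.01 without. A word match is a description of letters, and a window with no match shows only that these words are not in it.

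**Figure D1:**
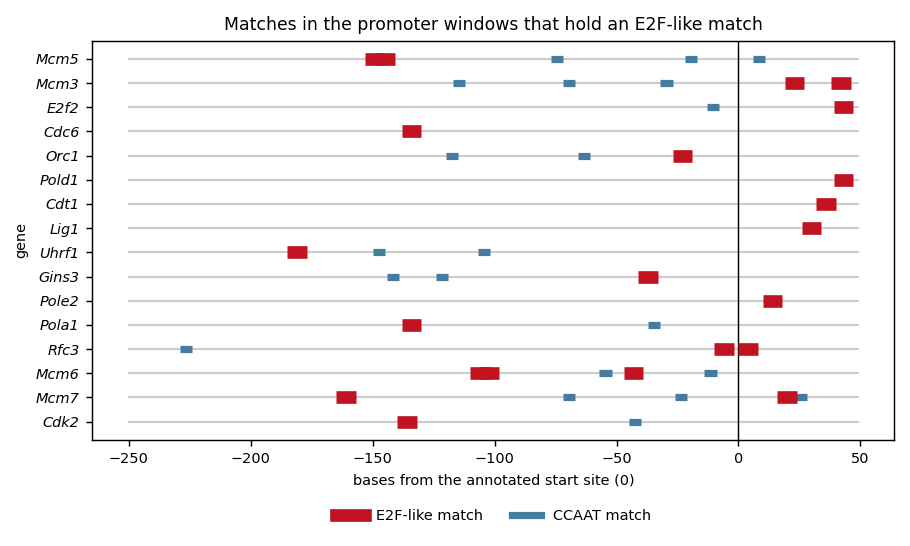
Positions of E2F-like (red) and CCAAT (blue) matches in the 16 promoter windows that hold an E2F-like match, in bases from the annotated start site, with genes ordered from the lowest to the highest SCID minus line difference. Of 22 E2F-like matches 9 began at or after the start site, and Mcm6 held 3.

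Both tumour pools had lower RNA of nearly every one of these genes than the cultured line. In the SCID pool 48 of 49 lay below 0, against 51.7% of all 11886 genes, and 10 were 2-fold lower or more, against 2.62%. The SCID median was -0.80, a 1.74-fold lower value, against -0.02 over all genes. In the WT pool 49 of 49 were below 0, against 51.4% of all genes, and 8 were lower by 2-fold, against 2.03%. With the GC content and length trend removed, Ccne2 at 0.04 and Cdk2 at 0.03 lay above 0 in the WT pool. The WT median was -0.73, against -0.01 over all genes. At a threshold of 1.5-fold, 38 of the 49 were lower in the SCID pool (9.43% of all genes) and 34 in the WT pool (8.36%). None was higher by 2-fold in the SCID pool (3.65% of all genes) or in the WT pool (4.12%). The 8 genes lower by 2-fold in both pools were Rrm2, Prim1, Tk1, Mcm5, Mcm3, Gmnn, E2f2 and Ccne1, and Cdc6 and Chaf1a passed the threshold in the SCID pool alone. The share of all genes lower in both was not counted and cannot exceed the 2.03% of the WT pool. Both comparisons share the line's library, so their overlap is not independent evidence. After removal of the trend with GC content and transcript length, Gmnn was at -0.92 in the SCID pool and -0.79 in the WT pool, short of 2-fold in both. Ccne1 in the SCID pool was short of it too, at -0.94 after that correction and at -0.99 after centring on the median of all genes. Nearest to it were Ccne1 at -1.01 and Fen1 at -0.99 in the SCID pool, and Gmnn at -1.03 and Chaf1a at -0.98 in the WT pool. Fewer cycling cells and less of these RNAs in each cell cannot be told apart in such bulk libraries.

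**Figure D2:**
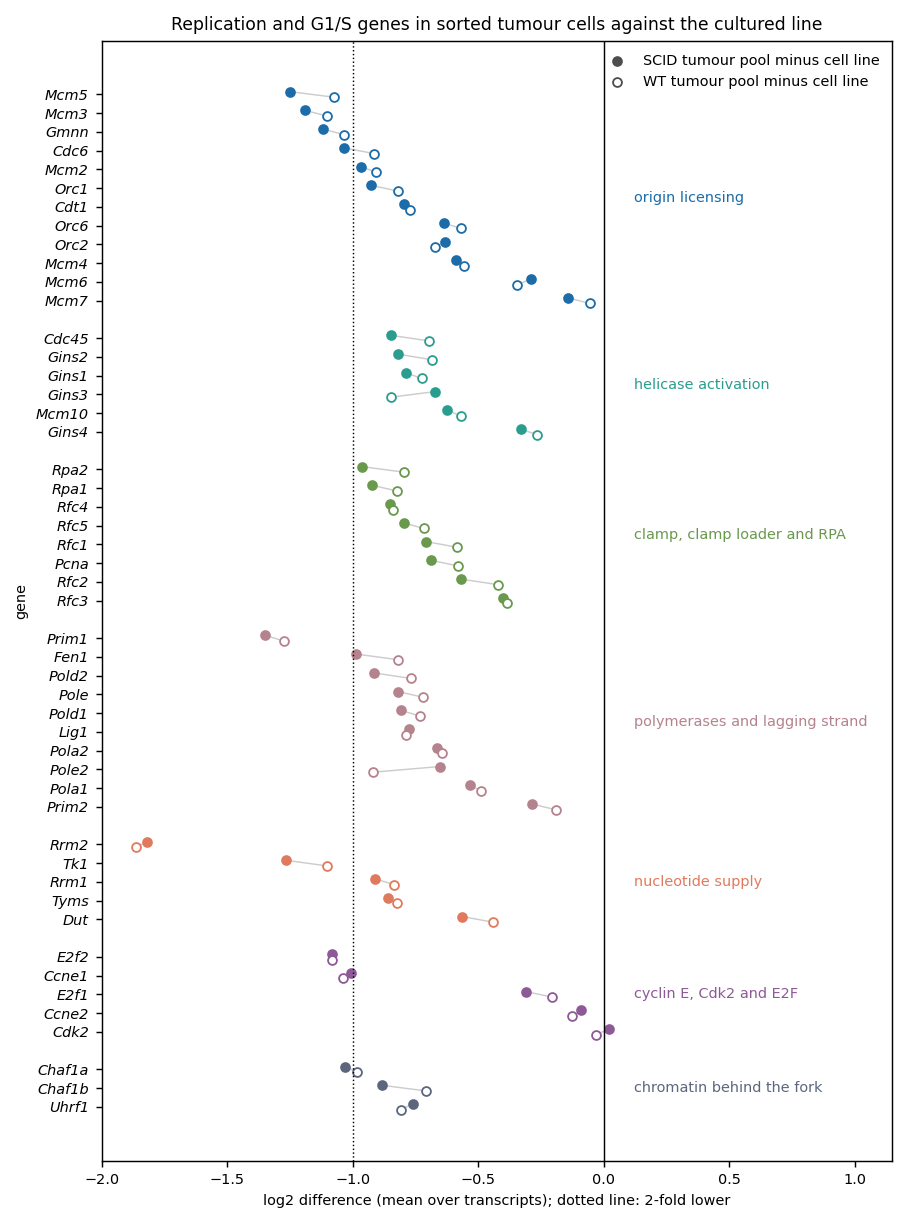
Log2 difference from the cultured line for each of the 49 genes, grouped by role, with filled points for the SCID tumour pool and open points for the WT tumour pool. All points but that of Cdk2 in the SCID pool lie below 0, Rrm2 stands lowest, and the dotted line marks 2-fold lower.

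Nucleotide supply held the lowest gene. Rrm2, the small subunit of ribonucleotide reductase that is made in S phase, was 3.52-fold lower in the SCID pool (-1.82) and 3.63-fold lower in the WT pool (-1.86). It ranked 17 from the lowest of all 11886 genes in the SCID pool and 14 in the WT pool, and has 1 transcript, on chromosome 12 from 24708254 to 24714146. Tk1, thymidine kinase of the salvage pathway, was at -1.26 in the SCID pool and -1.10 in the WT pool. The other 3 genes stayed within 2-fold in both pools. Rrm1, the large subunit that is more stable through the cycle, was at -0.91 in the SCID pool and -0.83 in the WT pool. Tyms, thymidylate synthase, was at -0.86 in the SCID pool and -0.82 in the WT pool, and Dut, which removes dUTP, at -0.56 in the SCID pool and -0.44 in the WT pool. Rrm2b, the subunit induced by p53, was at 0.33 in the SCID pool and 0.26 in the WT pool, short of 2-fold, and was chosen for naming after its values were seen.

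Among the 12 licensing genes 4 were lower by 2-fold in the SCID pool (2.62% of all genes) and 3 in the WT pool (2.03%). Their medians were -0.86 in the SCID pool and -0.80 in the WT pool. The subunits of the helicase ring spread widely when transcripts were averaged. Mcm5 was at -1.25 in the SCID pool and -1.07 in the WT pool, Mcm3 at -1.19 in the SCID pool and -1.10 in the WT pool, and Mcm2 at -0.97 in the SCID pool and -0.91 in the WT pool. Mcm4 was at -0.59 in the SCID pool and -0.56 in the WT pool. Mcm6 was at -0.29 in the SCID pool and -0.34 in the WT pool, and Mcm7 at -0.14 in the SCID pool and -0.05 in the WT pool. The averages of Mcm6 and Mcm7 each join a transcript well below 0 with one near or above it, described below. Of the loading factors, Cdc6, the ATPase that loads the ring, was at -1.04 in the SCID pool and -0.92 in the WT pool. Cdt1, its partner, was at -0.79 in the SCID pool and -0.77 in the WT pool. Gmnn, geminin, which inhibits Cdt1, was at -1.12 in the SCID pool and -1.03 in the WT pool. Its difference from the line was further below 0 than that of Cdt1 in both, by less than the SD between transcripts. Levels are not given, so the RNA amounts of inhibitor and target cannot be compared. In the origin recognition complex, Orc1, the subunit whose protein level follows the cell cycle in human cells, was at -0.93 in the SCID pool and -0.82 in the WT pool. Orc2 at -0.63 and Orc6 at -0.64 in the SCID pool, and at -0.67 and -0.57 in the WT pool, lay nearer to 0. Orc3, Orc4 and Orc5, the remaining core subunits, were at 0.20, 0.31 and -0.11 in the SCID pool and at 0.05, 0.06 and -0.29 in the WT pool; they were named after their values were seen.

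None of the 6 helicase activation genes was lower by 2-fold in the SCID pool (2.62% of all genes) or the WT pool (2.03%). Their medians were -0.73 in the SCID pool and -0.69 in the WT pool. Cdc45 was at -0.85 in the SCID pool and -0.69 in the WT pool, and Mcm10, which helps to start the helicase, at -0.62 in the SCID pool and -0.57 in the WT pool. The 4 subunits of GINS ran from -0.82 for Gins2 to -0.33 for Gins4 in the SCID pool and from -0.85 for Gins3 to -0.26 for Gins4 in the WT pool. Gins4 was the subunit nearest to 0 in both.

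None of the 8 genes of the clamp, the clamp loader and the single-strand binding protein RPA passed 2-fold either. The shares of all genes lower by 2-fold were 2.62% in the SCID pool and 2.03% in the WT pool. Pcna, the sliding clamp, was at -0.69 in the SCID pool and -0.58 in the WT pool. The 5 loader subunits spanned -0.85 for Rfc4 to -0.40 for Rfc3 in the SCID pool and -0.84 for Rfc4 to -0.38 for Rfc3 in the WT pool, so the same subunits marked both ends. Rpa2 was at -0.96 in the SCID pool and -0.79 in the WT pool, and Rpa1 at -0.92 in the SCID pool and -0.82 in the WT pool.

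Of the 10 polymerase and lagging strand genes only Prim1 passed 2-fold, beside 2.62% of all genes in the SCID pool and 2.03% in the WT pool. Prim1, the catalytic subunit of primase, which lays the RNA primers, was 2.55-fold lower in the SCID pool (-1.35) and 2.42-fold lower in the WT pool (-1.27). Prim2, the large primase subunit, was at -0.28 in the SCID pool and -0.19 in the WT pool, the value nearest to 0 in this role. The polymerase alpha subunits bound to primase lay between them, with Pola1 at -0.53 in the SCID pool and -0.49 in the WT pool and Pola2 at -0.66 in the SCID pool and -0.65 in the WT pool. Pole, the catalytic subunit of the leading strand polymerase, and Pold1, that of the lagging strand polymerase, were at -0.82 and -0.81 in the SCID pool and at -0.72 and -0.73 in the WT pool. Pold2 was at -0.92 in the SCID pool and -0.77 in the WT pool. Pole2 was at -0.65 in the SCID pool and -0.92 in the WT pool. Fen1, the flap nuclease that trims Okazaki fragments, was at -0.99 in the SCID pool and -0.82 in the WT pool, and Lig1, the ligase that joins them, at -0.77 in the SCID pool and -0.79 in the WT pool.

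The 5 regulators of entry into S phase held genes about 2-fold lower and genes near 0. With transcripts averaged, their medians were -0.31 in the SCID pool and -0.20 in the WT pool, nearer to 0 than those of every other role. Each median is the value of E2f1, so this order rests on averaging its 2 transcripts. They were at -0.89 and 0.27 in the SCID pool and at -1.01 and 0.60 in the WT pool. Ccne1, cyclin E1, was 2.01-fold lower in the SCID pool (-1.01) and 2.05-fold lower in the WT pool (-1.04), while Ccne2, cyclin E2, was at -0.09 in the SCID pool and -0.12 in the WT pool. Each cyclin gene has 1 transcript. Cdk2, the kinase they activate, was at 0.02 in the SCID pool and -0.03 in the WT pool. E2f2 was at -1.08 in the SCID pool and -1.08 in the WT pool, and E2f1 at -0.31 in the SCID pool and -0.20 in the WT pool. The transcripts of E2f1 differed by more than the SD between transcripts in both pools, and those of E2f2 in the SCID pool only.

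Chromatin genes that follow the fork included Chaf1a and Chaf1b, subunits of the assembly factor that deposits new histones. Chaf1a was at -1.03 in the SCID pool and -0.98 in the WT pool, and Chaf1b at -0.88 in the SCID pool and -0.71 in the WT pool. Uhrf1, which recruits the DNA methyltransferase to new DNA, was at -0.76 in the SCID pool and -0.81 in the WT pool as the mean of 4 transcripts.

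Of 77 transcripts 74 were below 0 in the SCID pool and 73 in the WT pool, and 17 were lower by 2-fold in each pool, against 2.49% of all 17910 transcripts for SCID minus line and 2.05% for WT minus line. Of the 49 genes 21 have 2 or more transcripts. How reads that fit several transcripts were shared out is not given in the sources used here, and reads of overlapping transcripts cannot be assigned with certainty. The widest gap was in Mcm7. Its transcript NM_008568, which starts at the upstream site printed above with 2 E2F-like words (chromosome 5, 138164583 to 138171883), was at -1.20 in the SCID pool and -1.07 in the WT pool. The transcript NM_001356577, which starts 617 bases further into the gene at the site printed without such a word, was at 0.92 in the SCID pool and 0.96 in the WT pool. The Mcm7 transcript from the upstream start stood beside Mcm3 and Mcm5, and the other was on the other side of 0.

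Other genes showed a gap between transcripts with different starts. Mcm10 was at -1.24 in the SCID pool and -1.07 in the WT pool for NM_027290, and at -0.005 in the SCID pool and -0.06 in the WT pool for NM_001305259, which starts 447 bases downstream. E2f1 was at -0.89 in the SCID pool and -1.01 in the WT pool for NM_007891, and at 0.27 in the SCID pool and 0.60 in the WT pool for NM_001291105, whose start lies 466 bases downstream. The 2 Uhrf1 transcripts from the upstream start were at -1.23 and -1.35 in the SCID pool and at -1.24 and -1.10 in the WT pool. The 2 from a start 976 bases downstream were at -0.32 and -0.14 in the SCID pool and at -0.39 and -0.50 in the WT pool. In Uhrf1 the E2F-like word lay in the window of the downstream start, unlike in Mcm7. Cdc6 was at -1.57 in the SCID pool and -1.21 in the WT pool for NM_001025779, and at -0.51 in the SCID pool and -0.62 in the WT pool for NM_011799, 262 bases downstream. The E2F-like word of Cdc6 also lay in the window of the downstream start, and Mcm10 and E2f1 held no such word.

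Dut, Lig1 and Cdc45 ran the other way in both pools, and E2f2 did so in the WT pool, at -0.94 for the upstream NM_177733 and -1.22 for NM_001305399. Dut was at -0.25 in the SCID pool and 0.03 in the WT pool from its upstream start, and at -0.88 in the SCID pool and -0.92 in the WT pool from a start 267 bases downstream. Lig1 was at -0.47 in the SCID pool and -0.65 in the WT pool from its upstream start, and its other transcripts at -0.88 and -0.98 in the SCID pool and at -0.70 and -1.01 in the WT pool. Cdc45 was at -0.76 in the SCID pool and -0.64 in the WT pool upstream, and at -0.93 in the SCID pool and -0.75 in the WT pool from a start 333 bases downstream, gaps under the SD between transcripts. In all, 10 of the genes have transcripts with different starts, and the upstream transcripts were the lower ones in 7 of the 10 in the SCID pool and in 6 of the 10 in the WT pool. Over the 1432 genes of the table with such transcripts the share was 55.4% for SCID minus line and 57.5% for WT minus line. Gaps also occurred between transcripts with the same start. The Cdk2 transcripts NM_016756 and NM_183417 were at -0.25 and 0.30 in the SCID pool and at -0.33 and 0.27 in the WT pool. The Mcm6 transcripts NM_008567 and NM_001313695 also share theirs, and were at -0.57 and -0.01 in the SCID pool and at -0.50 and -0.18 in the WT pool.

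**Figure D3:**
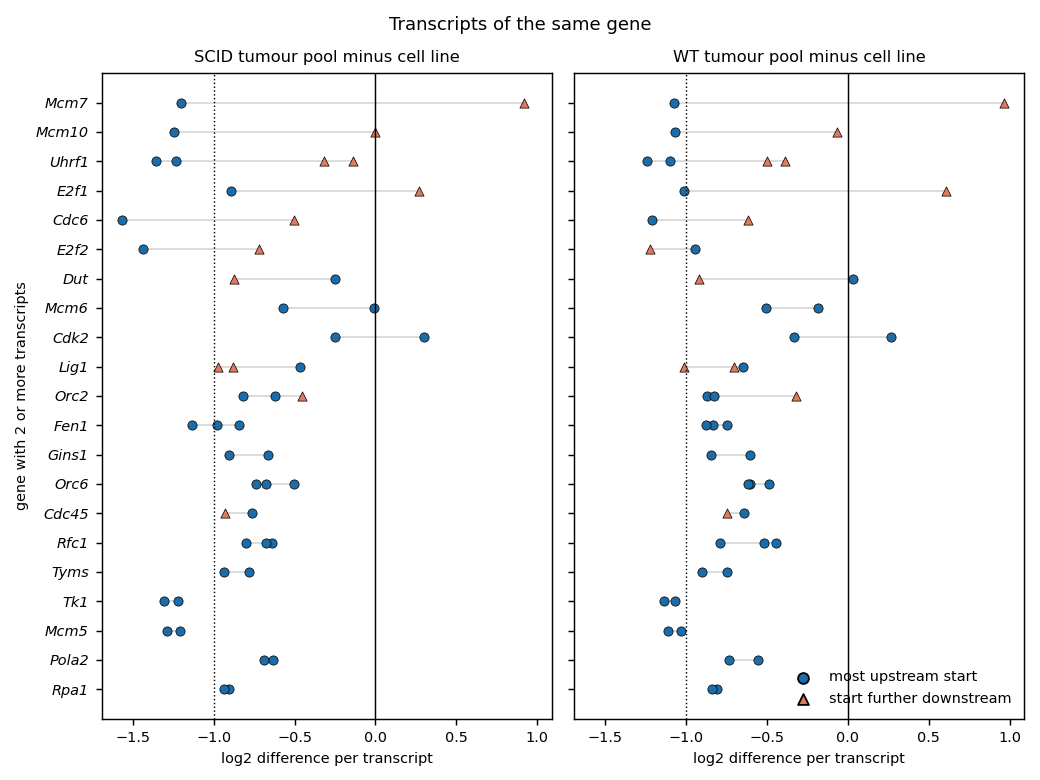
Log2 difference of each transcript of the 21 genes with 2 or more transcripts, in the SCID tumour pool (left) and the WT tumour pool (right) minus the cultured line, with circles for the most upstream start and triangles for starts further downstream. The Mcm7 circle and triangle lie at -1.20 and 0.92 in the SCID pool, and the transcripts of Rpa1 and Mcm5 nearly coincide.

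Other genes of replication and of G1/S control were lower too, though by less at the median. Of 50 other replication genes 45 were below 0 in each pool and 6 were lower by 2-fold in each. Their medians were -0.57 in the SCID pool and -0.59 in the WT pool. Over all genes 51.7% were below 0 in the SCID pool and 51.4% in the WT pool, and 2.62% and 2.03% were lower by 2-fold. Clspn, the adaptor of the replication checkpoint, was at -1.29 in the SCID pool and -1.11 in the WT pool. Asf1b, a histone chaperone, was at -1.22 in the SCID pool and -1.15 in the WT pool, Ticrr (treslin), which brings Cdc45 to origins, at -1.12 in the SCID pool and -1.07 in the WT pool, and Top2a, the topoisomerase that untangles new DNA, at -1.22 in the SCID pool and -1.09 in the WT pool. Dna2, a nuclease and helicase, at -1.02 and Recql4, a helicase of initiation, at -1.11 passed in the SCID pool, where the WT pool had -0.80 and -0.83. Dscc1, of an alternative clamp loader, at -0.85 and Hells, a chromatin remodeller, at -0.99 in the SCID pool were at -1.01 and -1.03 in the WT pool.

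Of 38 measured G1/S regulators 32 were below 0 in each pool. Over all genes the shares below 0 were 51.7% in the SCID pool and 51.4% in the WT pool. In the SCID pool 6 regulators were lower by 2-fold (2.62% of all genes) and 1 was higher (3.65%). In the WT pool 5 were lower (2.03%) and 1 was higher (4.12%). The gene that was higher was Cdkn1a, encoding p21, an inhibitor of cyclin E with Cdk2 and a p53 target, at 1.29 in the SCID pool and 1.45 in the WT pool. Lower ones were Mybl2, a transcription factor of cycling cells, at -1.68 in the SCID pool and -1.50 in the WT pool, Ccna2 (cyclin A2) at -1.57 in the SCID pool and -1.48 in the WT pool, and Fbxo5 (Emi1), an inhibitor of the anaphase-promoting complex, at -1.34 in the SCID pool and -1.33 in the WT pool. Ccnd2 (cyclin D2) was at -1.26 in the SCID pool and -1.27 in the WT pool, and the repressor E2f7 at -1.26 in the SCID pool and -1.19 in the WT pool. Cdkn2c, an inhibitor of Cdk4 and Cdk6, was at -1.01 in the SCID pool and -0.81 in the WT pool. The G1/S list had medians of -0.41 in the SCID pool and -0.43 in the WT pool. Mitosis genes lay further below 0 than the 49 genes, with medians of -1.17 in the SCID pool and -1.09 in the WT pool. In the SCID pool 28 of 35 were lower by 2-fold (2.62% of all genes) and in the WT pool 23 of 35 (2.03%). With 1 library per group the gap between the lists was not tested, and Top2a is in both the mitosis list and that of other replication genes.

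**Figure D4:**
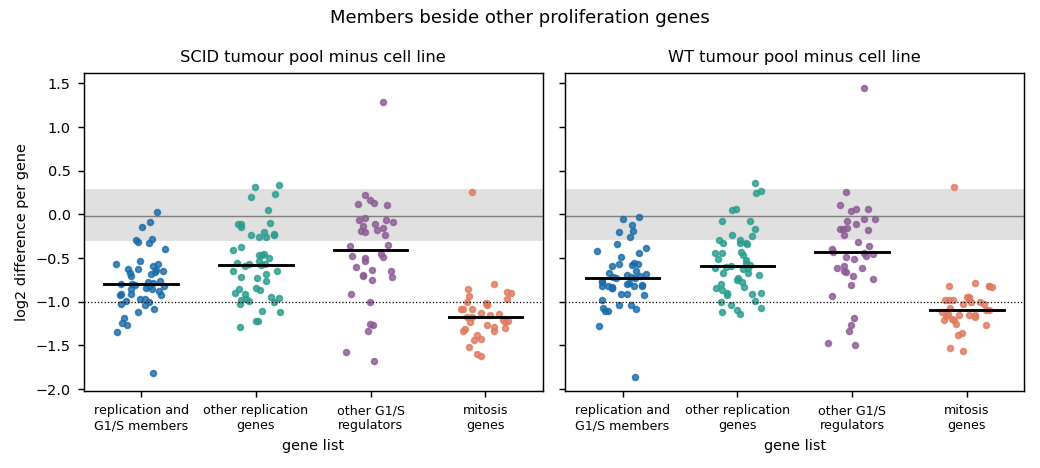
Log2 difference per gene for the 49 genes, 50 other replication genes, 38 other G1/S regulators and 35 mitosis genes, in the SCID tumour pool (left) and the WT tumour pool (right) minus the cultured line, with black bars at the medians, a grey line at the median and a grey band between the quartiles of all genes. The medians of the 49 genes lie at -0.80 and -0.73, above those of the mitosis genes at -1.17 and -1.09.

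Between the tumour pools these genes, like most genes of the table, lay close to 0. The quartiles were -0.11 and -0.02 for the 49 genes and -0.08 and 0.07 for all genes. SCID minus WT ran from -0.18 for Mcm5 to 0.26 for Pole2, with a median of -0.07, against -0.004 over all genes. None of the 49 was lower by 2-fold (0.303% of all genes) or higher by 2-fold (0.0168%). Of the 49 genes 38 were below 0, against 51.5% of all genes, so most were slightly further from the line in the SCID pool. In 48 of the 49 the difference was within the pooled SD between transcripts of 0.22, and Pole2 was the exception. The share of all genes within that SD was not counted, but their quartiles lay within it too. With the GC content and length trend removed, E2f2 was at -0.44, on NM_177733 alone, and lay beyond that SD. Gins3, at 0.18, had the next highest value. The only role with a median above 0 was that of cyclin E, Cdk2 and E2F, at 0.03. The median was -0.10 for the clamp, loader and RPA genes, where all 8 were below 0. The transcripts of E2f2 lay on opposite sides, at -0.49 for NM_177733 and 0.50 for NM_001305399. Samhd1, which breaks down deoxynucleotides and is induced by interferon, was at -0.59, the farthest from 0 of the other replication genes, and was chosen after its values were seen.

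**Figure D5:**
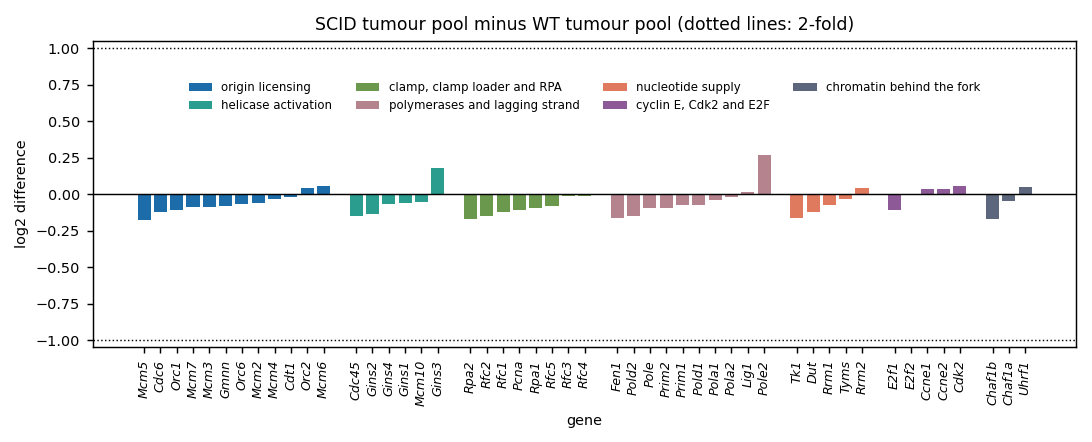
Log2 difference of the SCID tumour pool minus the WT tumour pool for each of the 49 genes, coloured by role, with dotted lines at 2-fold. All bars lie between -0.18 and 0.26, and 38 of 49 point down.

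Few of the listed markers of other cells had a value, and most of those lay above 0 against the line. Of 20 macrophage markers 5 had a value, running from -0.06 for Mrc1 to 1.02 for Apoe in the SCID pool and from 0.77 for Mrc1 to 2.77 for Apoe in the WT pool, and from -1.75 to -0.80 for SCID minus WT. Among fibroblast markers 1 of 12 had a value, Col1a1 at 2.61 in the SCID pool and 1.90 in the WT pool. Endothelial markers had 4 of 12, from 0.80 to 1.63 in the SCID pool and from 0.93 to 1.66 in the WT pool, and lymphocyte markers 2 of 20, Foxp3 at 0.10 and Tcf7 at 0.36 in the SCID pool and at 0.09 and 0.35 in the WT pool. Levels are not given, so it is unknown which markers are near 0, and the part of such cells in the lower replication values was not tested. Without levels the epithelial label of the line could not be checked. Of 10 measured epithelial markers 8 were below 0 in the SCID pool (51.7% of all genes) and 8 in the WT pool (51.4%). They ran from -1.18 for Krt7 to 1.25 for Epcam in the SCID pool and from -0.99 for Krt7 to 1.59 for Epcam in the WT pool. Among 18 housekeeping genes, 0 in the SCID pool (2.62% of all genes) and 0 in the WT pool (2.03%) were lower by 2-fold. Their medians were -0.21 in the SCID pool and -0.24 in the WT pool. B2m, a subunit of MHC class I, was at 0.77 in the SCID pool and 1.35 in the WT pool, where it was higher by 2-fold.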

How the data were processed

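RNA from 3 libraries, 1 per group, was made from poly(A) RNA with a stranded kit and read as pairs of 75 bases, per the labels' protocols. For each of 17910 RefSeq transcripts the authors deposited log2 fold changes between pairs of libraries. The submitters' processing notes list BWA, Partek, R 3.5.1, DESeq2 1.20.0 and the build mm9 with no role; any shrinkage or row filter is not given in the sources used here. Base 2 was read from DESeq2 in the submitters' processing notes. The third column, named for SCID alone, equalled SCID minus WT within 1e-12 in all 17910 transcripts. Coordinates are the table's, the end being the base before the given stop; all 77 transcripts lay within 1000 bases of the RefSeq gene of GRCm38.p6, although the notes name mm9.

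Gene values are means over transcripts, computed with Python 3.11.15 and pandas 2.3.3. The averaging and the 2-fold call were run on simulated data, where 200 of 200 changed genes were called. That run checked the calculation only. It does not show how reliably real changes are called from libraries without replicates. The rule for named genes took the 49 members, genes past 2-fold in the other lists and markers with a value; not every gene it took is named, and exceptions are stated. The members and lists were chosen with earlier results of these data known.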

Additional observations from a re-analysis of the deposited data

Results flagged for a closer look

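The difference from the line had opposite signs in the SCID and WT pools for Cdk2, at 0.0232 in the SCID pool and -0.0321 in the WT pool, a gap that lies within the spread between transcripts. Mrc1, a macrophage marker, was at -0.0557 in the SCID pool and 0.769 in the WT pool, and Samhd1 at -0.231 in the SCID pool and 0.356 in the WT pool. With 1 library per group none of these differences was tested.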

How the results depend on the processing

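The median of the 49 genes moved by less than the pooled SD between transcripts in each comparison under the median or the farthest transcript, genes with 1 transcript, coding transcripts, centring, correction for GC content and length, leaving out the farthest gene and, chosen after the table was seen, each transcript counted. It ran from -0.89 to -0.78 for SCID tumours minus the line, from -0.84 to -0.72 for WT tumours minus the line and from -0.09 to -0.07 for SCID minus WT. The number past 2-fold, 10 in the SCID pool, was 14 with the farthest transcript, 6 among 28 genes with 1 transcript and 17 of 77 transcripts. It was 38 at 1.5-fold and 0 at 4-fold. In the WT pool the number, 8, was 14 with the farthest transcript, 5 among 28 genes with 1 transcript and 17 of 77 transcripts. It was 34 at 1.5-fold and 0 at 4-fold. These shifts follow from the thresholds and the units counted. For SCID minus WT the number was 0 under every setting run. After that correction Mcm7 was at -1.20 in the SCID pool and -1.12 in the WT pool, on NM_008568 alone, and E2f2 at -1.55 in the SCID pool and -0.44 for SCID minus WT, on NM_177733 alone. Under it Gmnn, at -0.92 in the SCID pool and -0.79 in the WT pool, and Ccne1, at -0.94 in the SCID pool, were short of 2-fold. Mcm2 at -1.01 in the SCID pool and Chaf1a at -1.16 in the WT pool passed it. Ccne2 at 0.04 and Cdk2 at 0.03 in the WT pool turned sign. So did 6 genes for SCID minus WT, E2f2 among them. Centring left Ccne1 at -0.99 in the SCID pool. With the farthest transcript 7 genes lay beyond the SD between transcripts for SCID minus WT. No paired analysis was possible because each group has 1 library. Counts, levels and the depth of single libraries are not given, so counting error, low-count genes and the spread between tumours could not be assessed.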
